A study of Arabidopsis thaliana with 9 samples.

Results

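Arabidopsis roots answer a shortage of iron with a set of genes that dissolve iron, reduce it, carry it into the epidermis and control these steps. The set described here holds 10 of these genes, chosen by locus: the scopoletin 8-hydroxylase gene S8H, the sideretin synthase gene CYP82C4, the transporter gene IRT1, the ferric reductase gene FRO2, the vacuolar metal transporter gene IREG2 (AT5G03570), the regulator gene MYB72, and bHLH38, bHLH39, bHLH100 and bHLH101. Only 2 of the 10, S8H (AT3G12900) and bHLH101 (AT5G04150), had a probe set that the annotation pairs with that gene alone, out of 16550 genes named in this way. The other 8 were not analysed here.

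In iron-starved roots, proteins of the FIT and bHLH Ib groups, the latter comprising bHLH38, bHLH39, bHLH100 and bHLH101, act in pairs to switch on FRO2, which reduces ferric iron, and IRT1, which takes up ferrous iron. The same roots secrete coumarins, phenolic compounds that dissolve iron, and S8H makes one of them, fraxetin, from scopoletin. The bHLH Ib genes are in turn driven by the bHLH IVc proteins, which the ubiquitin ligases of the BTS family mark for breakdown.

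The arrays measured total RNA from roots of Col-0 seedlings grown for 4 days on diluted Murashige and Skoog medium under long days, and no group was grown without iron according to the labels. The 3 groups, with 3 arrays each, were wild type, a loss-of-function mutant of the transcription factor gene bHLH49, and a line overexpressing bHLH49. The source label names root tips and the tissue label names roots. The labels do not name the mutant allele, the promoter behind the overexpression or the number of independent lines, and they mention selection of transgenic seed on kanamycin or phosphinothricin without saying for which group. Repeats are numbered 1 to 3, with nothing to say that they came from separate cultures, so the p-values speak only of the spread among these samples, part of which may be technical.

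Values are log2 levels, on which 1 unit is a doubling. Array medians lay between 5.85 and 5.92, lower quartiles between 3.65 and 3.70, and any pair of arrays correlated between 0.988 and 0.993 over all probe sets. bHLH49 itself had 0 probe sets of its own in the annotation, so the genotype labels were not checked by its transcript. Of the 12 root markers listed, 8 had a probe set, and 7 of these had mean levels well above the lower quartiles in each genotype. The exception was the cortex gene CO2 (AT1G62500), with a mean of 3.85 in wild type against 4.22 and 3.11 in the mutant and the overexpressor.

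S8H was the member that differed most between genotypes. Its level was 5.64, 5.54 and 6.58 on the wild-type arrays of repeats 1, 2 and 3. On the mutant arrays it was 8.39, 7.86 and 7.20, and on the overexpressor arrays 5.72, 6.59 and 6.23. All 3 mutant arrays lay above all 6 other arrays, while wild type and overexpressor overlapped.

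The mean of S8H was 7.82 ± 0.60 in the mutant against 5.92 ± 0.57 in wild type (SD, n = 3). The log2 difference was 1.90 ± 0.39 (SE), a 3.72-fold higher level with a 95% interval from 2.00 to 6.94. It did not pass the test over all probe sets (limma, unadjusted p = 0.00128, Benjamini-Hochberg adjusted p = 0.295), in a comparison where only 9 of 38408 probe sets, 0.0234%, passed. By unadjusted p S8H ranked 135 of all probe sets, and 99.98% of them had a smaller absolute difference. In the mutant, 6.35% of probe sets had all arrays above all wild-type arrays.

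Between overexpressor and mutant, S8H was lower in the overexpressor, at 6.18 ± 0.44 (SD, n = 3), with a log2 difference of -1.64 ± 0.39 (SE). This is a 3.12-fold higher level in the mutant, with a 95% interval from 1.67 to 5.80, and it too missed the threshold (limma adjusted p = 0.0915; 1.83% of probe sets passed). It passed when only probe sets with a mean level over the 50th percentile were tested (adjusted p = 0.0397) and when only probe sets with 1 gene were tested (adjusted p = 0.0494), and over all alternatives the adjusted p lay between 0.0397 and 0.219. The overexpressor stood 0.26 ± 0.39 from wild type (adjusted p = 0.832; 1.35% of probe sets passed), with a 95% interval from -0.64 to 1.16, and the value was 0.05 without overexpressor repeat 2 and 0.59 without wild-type repeat 3. The order of S8H levels was therefore mutant, overexpressor, wild type, with the last 2 not separated beyond their spread. Because both comparisons of the mutant use the same 3 mutant arrays, they are not independent of each other.

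bHLH101, one of the bHLH Ib genes that pair with FIT, had its highest level in the mutant too. Its level was 4.85, 4.00 and 4.72 on the wild-type arrays, 5.005, 5.15 and 4.70 on the mutant arrays, and 3.69, 4.36 and 3.77 on the overexpressor arrays. Mutant and overexpressor arrays did not overlap, and wild type overlapped with both. The probe set was dim, with a mean over the 9 arrays at percentile 34.9 of all probe sets, and overexpressor repeat 1 lay within the range of the arrays' lower quartiles.

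The overexpressor minus mutant difference of bHLH101 was -1.01 ± 0.26 (SE), which is a 2.02-fold higher level in the mutant with a 95% interval from 1.33 to 3.08. It did not pass over all probe sets (limma, unadjusted p = 0.00494, adjusted p = 0.118; 0.0683 to 0.290 over the alternatives). Against wild type, the mutant stood at 0.43 ± 0.26 (adjusted p = 0.703) and the overexpressor at -0.58 ± 0.26 (adjusted p = 0.385). The first of these values rests on single arrays, being 0.17 without wild-type repeat 2 and 0.59 without wild-type repeat 1. The order of bHLH101 levels was mutant at 4.95 ± 0.23, wild type at 4.52 ± 0.46 and overexpressor at 3.94 ± 0.37 (SD, n = 3). Neighbours in this order were not separated beyond their spread.

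**Figure D1:**
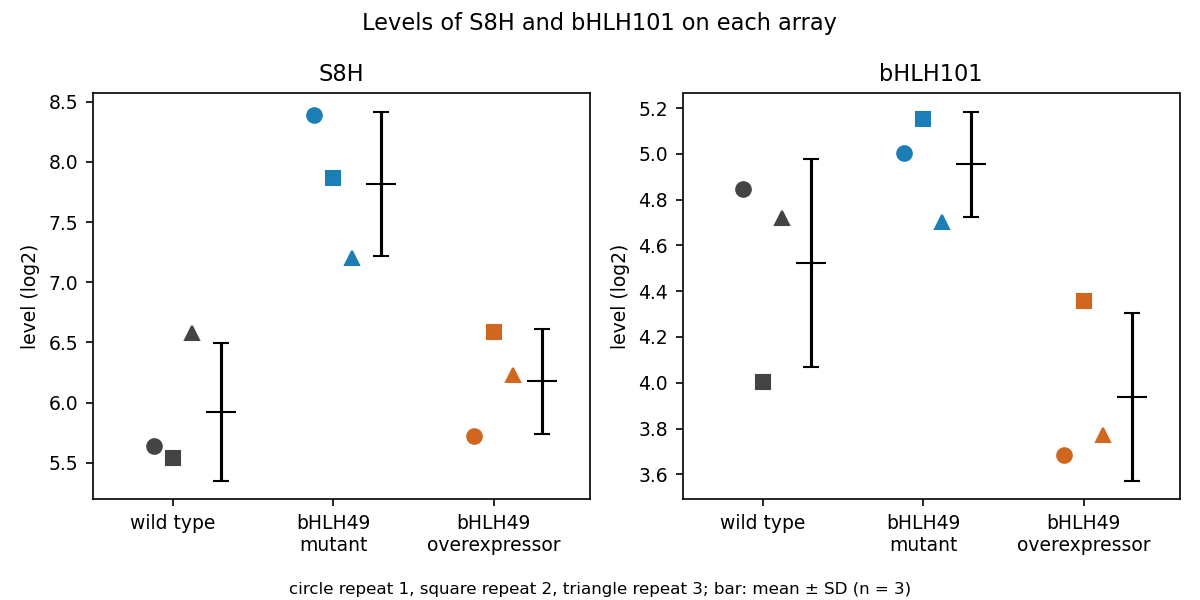
Log2 level of S8H (left) and bHLH101 (right) on each array, by genotype, with circles, squares and triangles for repeats 1, 2 and 3 and a bar for the mean and SD of 3 arrays; the vertical axes do not start at 0 and differ between panels. The 3 mutant arrays of S8H sit between 7.20 and 8.39, above the 6 others, and the 3 overexpressor arrays of bHLH101 sit between 3.69 and 4.36, below the 3 mutant arrays.

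A moderated F test, which asks whether any of the 3 genotypes differ, gave an adjusted p of 0.0946 for S8H and 0.212 for bHLH101, with 1.53% of probe sets passing (limma). So 0 of the 2 measured members passed in any of the 3 comparisons or in the F test. At an unadjusted p under 0.05 were 1 of the 2 members between mutant and wild type (S8H, higher), 0 between overexpressor and wild type and 2 between overexpressor and mutant (both lower). All probe sets reached that level in 8.44%, 13.6% and 15.1% of cases. The members were chosen with earlier results of these data known, so the counts and these shares make no test.

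Genes that make, regulate, move or store iron-related compounds were listed by role, 73 in all beyond the 10 members, and 18 of them had a probe set of their own. No gene of the reductase and proton pump list (0 of 9) or of the ferritin and nicotianamine synthase list (0 of 8) was among the 18. In each of the 3 comparisons 0 of the 18 rose, 0 fell and 18 did not pass, and the smallest adjusted p was 0.0630 (limma). Few of all probe sets passed either, 0.0234% between mutant and wild type, 1.35% between overexpressor and wild type and 1.83% between overexpressor and mutant. At an unadjusted p under 0.05 were 4 of the 18 between mutant and wild type, where 8.44% of all probe sets were, 2 between overexpressor and wild type, against 13.6%, and 6 between overexpressor and mutant, against 15.1%. The second of these shares lies below that of all probe sets. Because the lists too were chosen with earlier results of these data known, no test is drawn from these shares.

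Between mutant and wild type 10 of the 18 pathway genes were above 0 and 8 below, with a median log2 difference of 0.05, where the median of all probe sets was 0.00. For overexpressor against wild type 7 were above and 11 below, with a median of -0.02 against -0.01 for all probe sets. For overexpressor against mutant 5 were above and 13 below, with a median of -0.07 against -0.01. The arrays of mutant and wild type did not overlap for 2 genes higher and 1 lower in the mutant, where 6.35% and 6.04% of all probe sets did so. Overexpressor and wild type did not overlap for 2 genes higher and 2 lower in the overexpressor, against 8.85% and 10.7%. Overexpressor and mutant did not overlap for 2 genes higher and 6 lower in the overexpressor, against 9.31% and 11.2%. The 3 comparisons share arrays in pairs, so their values for one gene are not independent.

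**Figure D2:**
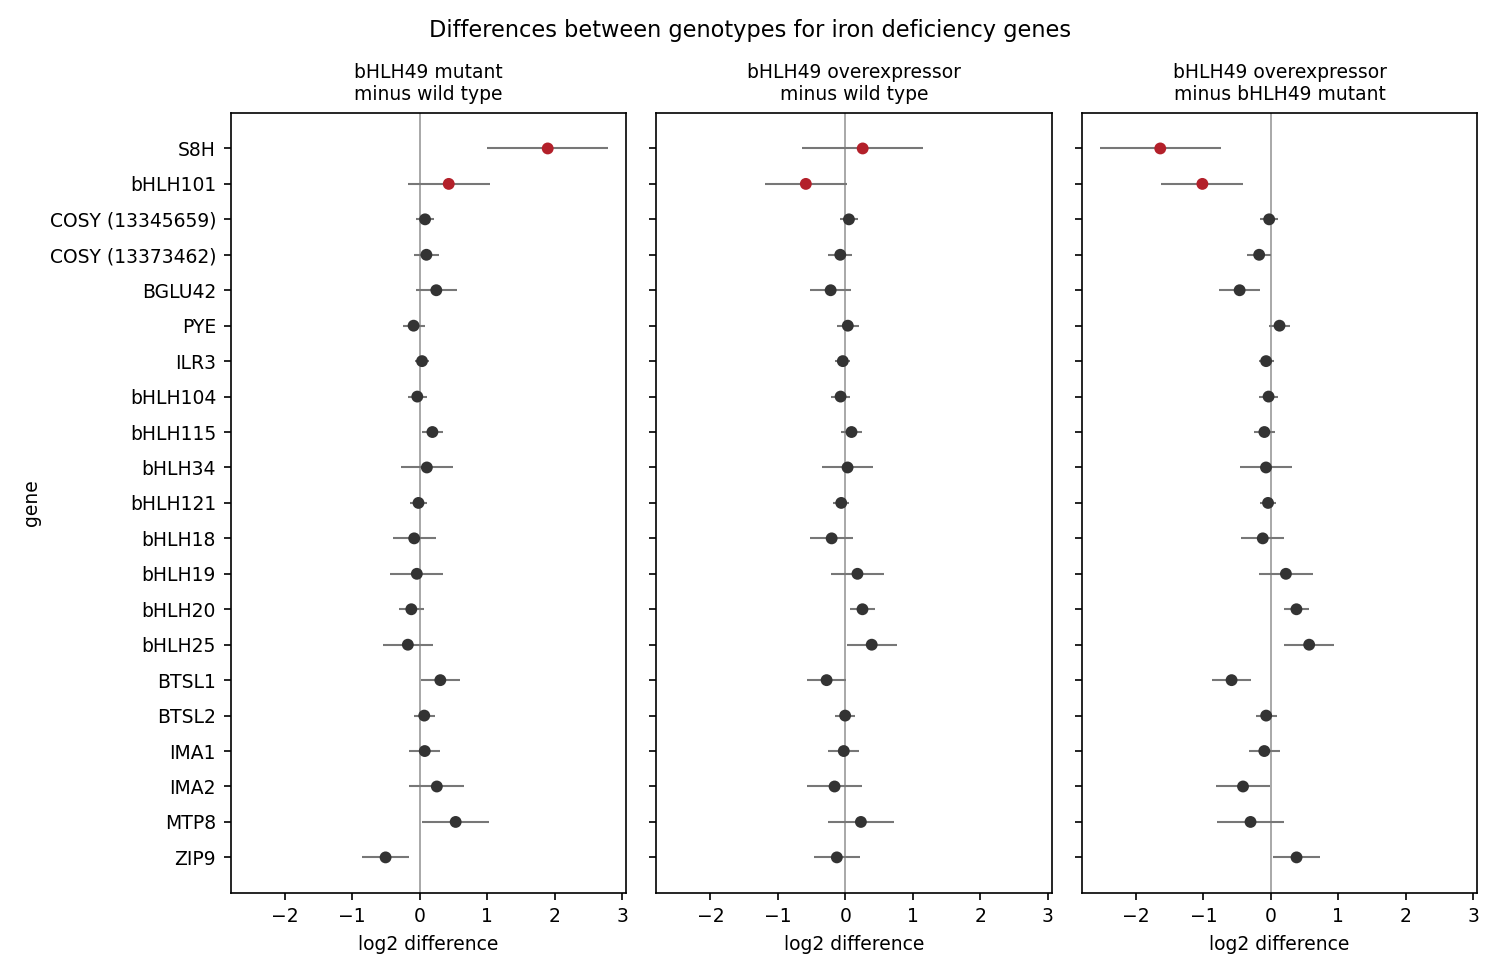
Log2 difference (horizontal axis) for each probe set of the 2 members (red) and the 18 pathway genes (dark), in the 3 comparisons, with lines for the 95% interval of the limma fit. S8H has the largest difference in the mutant panel, 1.90, and most of the regulators lie near 0 in both comparisons with wild type.

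Among coumarin genes, BGLU42 (AT5G36890), a beta-glucosidase that frees coumarins from their sugar before secretion, was ordered like bHLH101. Its level was 9.25, 9.18 and 9.25 in wild type, 9.74, 9.48 and 9.20 in the mutant, and 9.07, 9.10 and 8.86 in the overexpressor. Every overexpressor array lay below every array of the other genotypes. The overexpressor minus mutant difference was -0.46 ± 0.13 (SE; limma adjusted p = 0.148), and the mutant stood at 0.25 ± 0.13 against wild type (adjusted p = 0.660). The latter was 0.11 without mutant repeat 1 and 0.38 without mutant repeat 3, and the overexpressor minus wild type difference went from -0.22 to -0.14 without overexpressor repeat 3.

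COSY (AT1G28680), the coumarin synthase that closes the ring of the coumarin core, had 2 probe sets. Their mutant minus wild type differences were 0.08 and 0.10, with 95% intervals from -0.05 to 0.21 and from -0.08 to 0.28. In the overexpressor they were 0.05 and -0.07 from wild type. Adjusted p of both probe sets over the 3 comparisons lay between 0.347 and 0.881 (limma). The intervals of COSY between mutant and wild type end below that of S8H, which starts at 1.00 and which acts later on the same route.

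Regulators formed the best covered list, with 14 of 19 measured. BTSL1 (AT1G74770), a ubiquitin ligase related to BTS that limits iron uptake, had levels of 10.34, 10.35 and 10.58 in wild type, 10.97, 10.64 and 10.59 in the mutant, and 10.13, 10.29 and 10.03 in the overexpressor. The 3 genotypes did not overlap, although wild-type repeat 3 and mutant repeat 3 were only just apart. The overexpressor minus mutant difference was -0.58 ± 0.12 (SE; limma adjusted p = 0.0679), and those with wild type were 0.30 ± 0.12 for the mutant (adjusted p = 0.591) and -0.28 ± 0.12 for the overexpressor (adjusted p = 0.384). Without mutant repeat 1 the mutant minus wild type difference was 0.19. The overexpressor minus mutant difference passed under 3 of the alternatives, with adjusted p from 0.0271 to 0.199 over all of them. Its relative BTSL2 (AT1G18910) had differences from wild type of 0.07 and -0.00.

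The bHLH IVa proteins bHLH18, bHLH19, bHLH20 and bHLH25 bind FIT and promote its breakdown. bHLH20 (AT2G22770, also known as NAI1) had levels of 7.01, 7.18 and 7.10 in wild type, 6.85, 6.98 and 7.09 in the mutant and 7.34, 7.42 and 7.30 in the overexpressor. All overexpressor arrays lay above all others. The overexpressor minus mutant difference was 0.38 ± 0.08 (SE; limma adjusted p = 0.0630). It passed under 4 alternatives, among them centring of the arrays on their medians (adjusted p = 0.0365), with adjusted p from 0.0222 to 0.177 over all of them.

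bHLH25 (AT4G37850) likewise differed by 0.57 ± 0.16 between overexpressor and mutant (adjusted p = 0.147), but its probe set was dim, at percentile 14.2. bHLH18 and bHLH19, which neighbour bHLH20 on the chromosome, had overexpressor minus mutant differences of -0.12 and 0.22, and the latter was 0.09 without overexpressor repeat 3 and 0.45 without overexpressor repeat 2. bHLH19 was dim too, at percentile 32.3, and bHLH18 was at percentile 3.84 and so near the floor of the arrays. Over the 4 genes, of which 3 had such dim probe sets, the median difference was 0.22 between overexpressor and wild type and -0.10 between mutant and wild type, where all probe sets had medians of -0.01 and 0.00. The 4 did not share a direction between overexpressor and wild type. The values were 0.25 for bHLH20, 0.39 for bHLH25, 0.18 for bHLH19 and -0.20 for bHLH18, and that of bHLH19 was 0.05 without overexpressor repeat 3. The mutant minus wild type values of bHLH18 and bHLH19 turned sign with 1 array left out.

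The upstream activators had small differences. ILR3, bHLH104, bHLH115 and bHLH34 of the bHLH IVc group, and bHLH121, which works with them, had differences from wild type between -0.04 and 0.19 in the mutant and between -0.07 and 0.09 in the overexpressor. Of these 5, bHLH115 (AT1G51070) had the largest mutant minus wild type difference, with levels of 9.59, 9.50 and 9.62 in the mutant against 9.27, 9.44 and 9.43 in wild type, a difference of 0.19 ± 0.07 (SE; limma adjusted p = 0.523). For bHLH104 the deposited value was identical on 6 of the 9 arrays, and 40.2% of all probe sets had a value shared by at least 2 arrays. Among the other pathway genes, 3 arrays shared a value for ZIP9, bHLH19 and COSY probe set 13373462. For bHLH25, IMA1 and COSY probe set 13345659, 2 arrays did. S8H and bHLH101 had no shared value.

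PYE (AT3G47640), a bHLH repressor of iron homeostasis genes, stood at -0.09 ± 0.07 in the mutant and 0.04 ± 0.07 in the overexpressor against wild type, with adjusted p of 0.765 and 0.873. The peptide genes IMA1 (AT1G47400) and IMA2 (AT1G47395), neighbours on the chromosome whose short peptides signal iron shortage, differed in size. IMA2 was at 5.32, 4.68 and 5.21 in wild type, 5.38, 5.13 and 5.45 in the mutant and 4.90, 4.76 and 5.07 in the overexpressor, so the overexpressor lay below the mutant on all arrays (-0.41 ± 0.18, limma adjusted p = 0.325). IMA1 was dim, at percentile 27.8, and differed from wild type by 0.07 ± 0.10 in the mutant and -0.02 ± 0.10 in the overexpressor.

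Of the transport genes, MTP8 (AT3G58060), which carries manganese and iron into the vacuole, had levels of 5.68, 5.81 and 6.10 in wild type, 6.84, 6.39 and 5.95 in the mutant and 6.08, 6.23 and 5.97 in the overexpressor. Its genotypes overlapped, with mutant repeat 3 below wild-type repeat 3. The mutant minus wild type difference was 0.53 ± 0.21 (SE; limma adjusted p = 0.588), with 0.31 without mutant repeat 1 and 0.75 without mutant repeat 3. ZIP9 (AT4G33020), a metal transporter of the zinc response, lay in the opposite direction at 5.86, 5.49 and 5.23 in the mutant against 5.97, 6.15 and 5.98 in wild type, with no overlap and a difference of -0.51 ± 0.15 (adjusted p = 0.473).

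**Figure D3:**
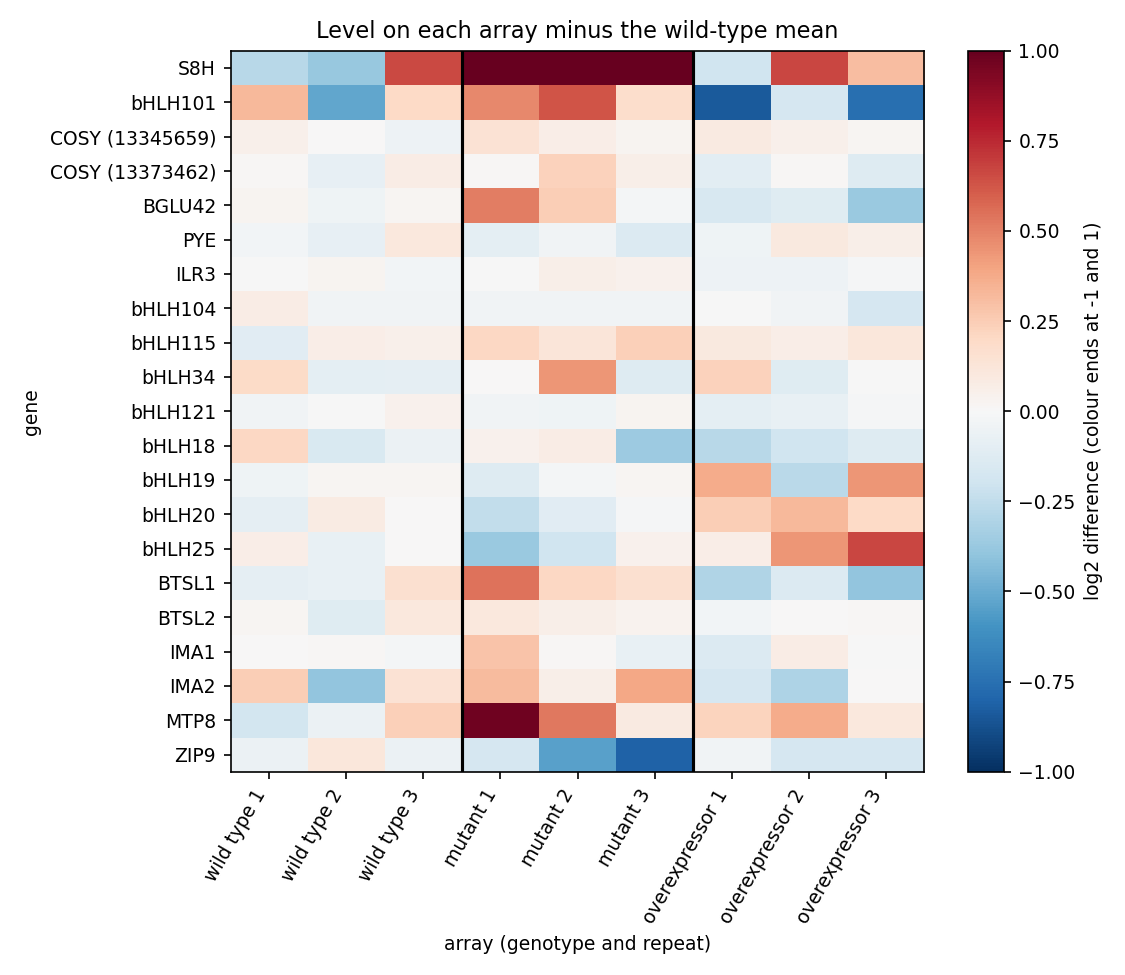
Level of each probe set on each of the 9 arrays minus its wild-type mean (colour, log2, ending at -1 and 1), with rows for the members and pathway genes and columns for the arrays. S8H is beyond the colour scale on all 3 mutant arrays, and bHLH101 and BTSL1 are above the wild-type mean on all 3 mutant arrays and below it on all 3 overexpressor arrays.

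The mutant arrays also differed among themselves. For S8H, BGLU42, BTSL1 and MTP8 the value was highest on mutant repeat 1 and lowest on mutant repeat 3. This was not particular to iron genes. The root markers RCPG, PRX44 and PRX7 had the same order, JKD had the reverse and the other root markers had neither. Of the photosynthesis genes, RCA had the same order and LHCB4.1 the reverse. Over the 19 probe sets of the 18 pathway genes, mutant repeat 1 alone was the highest of its group for 7 and the lowest for 5, and mutant repeat 3 alone was the highest for 6 and the lowest for 10. Without mutant repeat 1 the S8H difference from wild type was 1.61, the lowest of the values with 1 array left out, and without mutant repeat 3 it was 2.21; the highest was 2.23, without wild-type repeat 3.

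Across the 9 arrays, the Pearson r of S8H with the 19 pathway probe sets ran from -0.61 (bHLH20) to 0.86 (MTP8), with a median of 0.36, 13 above 0 and 6 below. The 3 highest, singled out here after their values were seen, were MTP8, BTSL1 with 0.82 and BGLU42 with 0.75. These coefficients describe 3 groups of arrays and not 9 independent samples. Of 16536 named genes, 51 had a higher r with S8H than MTP8 had, 105 a higher r than BTSL1 and 277 a higher r than BGLU42. Without the 2 arrays farthest from the S8H median, which were mutant repeats 1 and 2, r was 0.51, 0.52 and 0.05, so the higher values depend on those arrays. Leaving out the farthest arrays also narrows the range of S8H, which can lower r by itself. Between S8H and bHLH101 r was 0.70, and 0.43 without those arrays. It was 0.70 without the 2 arrays farthest from the bHLH101 median.

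**Figure D4:**
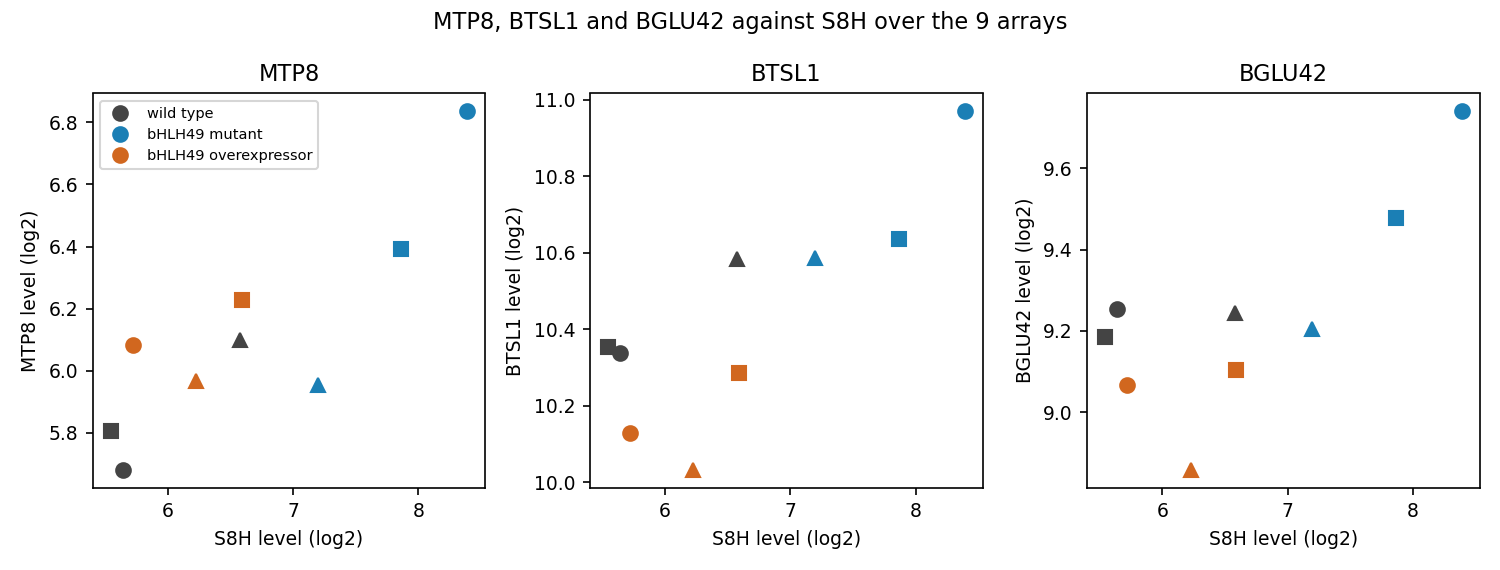
Log2 levels of MTP8, BTSL1 and BGLU42 (vertical axes) against S8H (horizontal axes) on the 9 arrays, coloured by genotype, with circles, squares and triangles for repeats 1, 2 and 3. Mutant repeats 1 and 2 lie at the upper right of each panel, and mutant repeat 3 lies among or near the other arrays.

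The 3 named genes with the highest r with S8H were psbK, a plastid-encoded photosystem II gene (r = 0.96), AT5G23890 (0.92) and AT3G01860 (0.92). Without mutant repeats 1 and 2 the r of these genes, which were picked for a high r, was 0.91, 0.76 and 0.73. Their mutant minus wild type differences were 0.12, 0.11 and 0.30, far smaller than that of S8H. For bHLH101 they were AT5G42450 (0.96), AT4G30650 (0.95) and SYNC3 (0.94), with overexpressor minus mutant differences of -0.38, -0.31 and -0.48. Of the 6, SYNC3 passed between overexpressor and mutant (limma adjusted p = 0.0359), a call lost under 11 of 16 alternatives (adjusted p up to 0.119), among them leaving out any 1 array other than wild-type repeat 2. The other 5 passed in none of the 3 comparisons.

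Markers of root cell types moved in part with these groups. Over the 8 root markers 0 passed between mutant and wild type, where 0.0234% of all probe sets passed. Unadjusted p (limma) was under 0.05 for 5 of the 8 between mutant and wild type (2 higher, 3 lower), against 8.44% of all probe sets. Between overexpressor and wild type it was so for 5 (1 higher, 4 lower), against 13.6%. Between overexpressor and mutant it was so for 3 (2 higher, 1 lower), against 15.1%. Against wild type, 1 rose in the overexpressor, the root cap polygalacturonase gene RCPG (AT1G65570), by 1.57 ± 0.15 (SE; limma adjusted p = 0.00358), and 1 fell, CO2, by 0.74 ± 0.12 (adjusted p = 0.0359), where 1.35% of all probe sets passed. The same 2 genes passed between overexpressor and mutant, RCPG at 0.94 ± 0.15 (adjusted p = 0.0221) and CO2 at -1.11 ± 0.12 (adjusted p = 0.00624), where 1.83% of all probe sets passed. The means of CO2 thus had the order of the bHLH101 means, with mutant highest and overexpressor lowest. Its probe set was dim, at percentile 25.7, and its overexpressor arrays, at 3.07, 3.32 and 2.94, lay below the lower quartiles of all arrays. The CO2 call against wild type was lost under 10 of 16 alternatives (adjusted p up to 0.124), among them leaving out any 1 array other than overexpressor repeat 2. The RCPG call between overexpressor and mutant was lost under 6 of 17 (adjusted p up to 0.0859), among them leaving out mutant repeat 2 or any overexpressor array. The mean level of the root markers lay between 8.69 and 8.74 on the wild-type arrays, 8.65 and 8.76 on the mutant arrays and 8.73 and 8.78 on the overexpressor arrays. Between mutant and wild type, the 2 higher markers were RCPG at 0.63 ± 0.15 (limma adjusted p = 0.365) and CO2 at 0.37 ± 0.12 (adjusted p = 0.517). The 3 lower were the root hair expansin genes EXPA18 (AT1G62980) and EXPA7 (AT1G12560) and the gene SGN3 (AT4G20140). EXPA18 differed by -0.37 ± 0.09 (adjusted p = 0.367), EXPA7 by -0.18 ± 0.06 (adjusted p = 0.520) and SGN3 by -0.15 ± 0.06 (adjusted p = 0.559).

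Of the 6 shoot markers listed, 2 had a probe set, RCA and LHCB4.1, genes of photosynthesis. Their mean was 6.93 to 7.16 on the wild-type arrays, 7.16 to 7.25 on the mutant arrays and 7.04 to 7.16 on the overexpressor arrays. The 2 genes differed in pattern. In wild type, mutant and overexpressor RCA had means of 7.54, 7.61 and 7.68, and LHCB4.1 had means of 6.53, 6.80 and 6.53. Neither passed in any comparison, with adjusted p of 0.327 or more (limma). The part of these shifts in the S8H and bHLH101 values was not tested. In RNA from root tissue of mixed cell types, a change in the number of cells that express a gene and a change in the RNA per cell cannot be told apart.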

How the data were processed

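The authors deposited log2 values for 38408 probe sets on 9 single-channel arrays, made with RMA per the submitters' processing notes; no version or settings of RMA appear in the sources used here. RMA corrects background, normalizes between arrays and summarises the probes of a set, so no further normalization was applied. Precision is set by the number of arrays and by the spread of each probe set among them. Names came from the platform annotation, updated through the RefSeq gene table of TAIR10.1 (used for names and neighbours only). It pairs 16722 probe sets with 1 gene and 759 with several, leaving 20927 unnamed here; RefSeq held 16574 of the first kind.

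The limma package (3.58.1; R 4.3.3) fitted genotype to the 9 arrays together, with lmFit and eBayes and 6 residual plus 1.85 prior degrees of freedom. Benjamini-Hochberg adjustment ran over all 38408 probe sets, and "rose", "fell" and "passed" mean an adjusted p below 0.05. Of these probe sets, 5529 repeated the values of an earlier one on all 9 arrays. They were kept in the adjustment and in the shares and ranks over all probe sets. The fit was tested on simulated data. Intervals are 95% intervals of the fit.

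The members and the gene lists were chosen with earlier results of these data known. All measured members are named, all measured pathway genes are counted, and the 3 genes most correlated with each member are named. A gene with 2 probe sets entered list medians by their mean. The repeat numbers were checked as pairs: deviations of same-numbered arrays from their genotype means correlated between -0.09 and 0.03, so they were not taken as pairs. Alternatives changed normalization, filters, variance prior, array weights, the repeat number as a block, and the arrays in the fit.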

Additional observations from a re-analysis of the deposited data

How the results depend on the processing

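For the 2 members and 18 pathway genes, 63 differences were recomputed under up to 17 alternatives. Of 1047 values, 1015 kept their direction and their side of the threshold, where a value of 0 counted as kept. The S8H, BTSL1 and bHLH20 differences between overexpressor and mutant passed under 9 of these values, under filters, a changed prior or, for bHLH20, median centring; the cause was not tested. bHLH101 has no value above the 50th percentile of mean level, since it lies below it. With 1 array left out, S8H ranged from 1.61 to 2.23 between mutant and wild type and from -1.95 to -1.35 between overexpressor and mutant, and bHLH101 from -1.23 to -0.89 in the latter. Leaving out 1 array moved 46 of the 63 differences by over 1.5 times or turned them.

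The direction turned in 23 values of 13 differences, all small. The bHLH104 difference between mutant and wild type, not among these, was 0 without wild-type repeat 1. With 1 array left out, ranges for mutant minus wild type were -0.064 to 0.22 for bHLH34, -0.040 to 0.0031 for bHLH121, -0.16 to 0.058 for bHLH18, -0.076 to 0.00083 for bHLH19 and -0.030 to 0.15 for IMA1. For overexpressor minus wild type they were -0.0039 to 0.092 for PYE, -0.064 to 0.13 for bHLH34, -0.064 to 0.051 for BTSL2 and -0.070 to 0.035 for IMA1. For overexpressor minus mutant they were -0.051 to 0.0082 for COSY probe set 13345659, -0.064 to 0.014 for bHLH104, -0.19 to 0.098 for bHLH34 and -0.17 to 0.0074 for IMA1. BTSL2 in the overexpressor against wild type was also 0.0013 with arrays centred on their medians, 0.0080 with quantile normalization again and 0.0085 with array weights, and COSY probe set 13345659 between the lines was 0.0083 with centred arrays. The cause was not tested.

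Counts of probe sets passing moved more. With the replicate block, 1 instead of 9 passed for mutant against wild type, 200 instead of 520 for overexpressor against wild type, 347 instead of 702 between the lines and 259 instead of 589 in the F test. The repeat numbers are not shown to pair the arrays, and 2 of 9 arrays correlated best with an array of their own number. With only the 6 arrays compared, 2, 249 and 260 passed. Above the 50th percentile of mean level, 878 (465 of them lower, 413 higher) and 1211 passed for the overexpressor against wild type and mutant, and 1011 in the F test, with 798, 1107 and 903 under eBayes with trend and robust. Testing only probe sets with 1 gene left 1 for mutant against wild type. Median centring of the arrays gave a split between the lines of 458 higher and 251 lower, against 373 and 329. With 1 array left out, the counts ranged from 1 to 6, from 174 to 457, from 295 to 518 and, in the F test, from 189 to 400. Signal limits the dim probe sets of bHLH101, bHLH19, IMA1, bHLH25 and bHLH18, which lie at percentiles 34.9, 32.3, 27.8, 14.2 and 3.84 of the mean. The same holds for the root marker CO2, at percentile 25.7.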
